A study of Mus musculus with 96 samples.

Results

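The liver secretes most of the proteins of complement and of blood clotting, and 40 mouse genes for such proteins were followed here: 18 of complement and 22 of coagulation, fibrinolysis and related plasma proteins. They were chosen by gene symbol from a list of proteins made by the liver, with no expression value in the rule. Earlier results of these data were known when they were chosen. Of the 40, 39 were found by Ensembl identifier among the 38924 genes of the NOD and PWK tables, 18 of complement and 21 of coagulation. Klkb1, the gene of plasma prekallikrein, was not analysed here. All 39 passed the filter on low counts, and 38 are autosomal and entered the test of allele ratios.

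RNA-seq was run on the livers of 48 male F1 hybrids bred from NOD/ShiLtJ and PWK/PhJ parents, 24 from each direction of the cross. The strain written first was taken as the dam, so a NODxPWK male carries the X chromosome of NOD and a PWKxNOD male that of PWK. Mice of each cross were fed cholecalciferol (vitamin D) at 0.009 g per kg of diet (normal) or 0.050 g per kg (high) and were killed at a younger or an older age, which gives 8 groups of 6 mice. The age label is 8 for every younger mouse and 24 or 25 for the older ones, whereas the protocol gives 15 and 24 weeks, so only the order of the ages is used. The 7 mice labelled 25 are all older mice on the normal diet, 5 of NODxPWK and 2 of PWKxNOD. Without them, the older NODxPWK group on the normal diet keeps only its mouse labelled 24. Results of that setting rest on this mouse alone for that group. All groups are F1 hybrids, with no inbred parent and no female among them.

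Complement is a chain of plasma proteases that ends in a pore. Mannose-binding lectins with MASP proteases, or C1q with C1r and C1s, cleave C4 and C2, the resulting enzyme cleaves C3, and C6, C8 and C9 build the membrane attack pore. Coagulation is a second chain of proteases, in which vitamin K-dependent factors lead to thrombin, and thrombin turns fibrinogen into fibrin. Hepatocytes make nearly all of these proteins, and several of them, fibrinogen and C3 included, are acute phase proteins whose transcripts respond to inflammatory cytokines.

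The summed NOD and PWK counts ran from 2.03 M to 7.48 M per mouse, with a median of 5.27 M. The 6 mice of 1 barcode had 2.03 M to 3.09 M and every other mouse at least 4.10 M. Summed hepatocyte markers stood at 86240 to 153000 CPM (counts scaled to library size, with TMM factors) and summed platelet markers at 0.496 to 3.62 CPM. Exocrine pancreas markers were over 80 CPM in 8 mice and reached 1764 CPM in 1 of them. In these bulk samples, fewer cells of a type and less RNA per cell cannot be told apart.

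Per transcript length the members spanned a wide range. Fgg, the gamma chain of fibrinogen, averaged 2777 ± 486 CPM (SD, n = 48) and 1595 CPM per kilobase, and C3 averaged 7416 ± 866 CPM and 1444 CPM per kilobase. Ahsg, the plasma glycoprotein fetuin-A, had the highest value per kilobase, 3414 CPM. The lowest was Pros1, the anticoagulant protein S, and next to it stood Masp1, a lectin pathway protease, at 15.7 CPM per kilobase. The 3 fibrinogen chains therefore lay among the most abundant members on the scale per kilobase, and proteases at the head of the lectin pathway among the least abundant.

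Some members share sequence with other genes, which matters for counts of 68 bp reads. Of the 68-base windows of Cfb, 70.7% also occur in another annotated gene, chiefly the read-through gene Gm20547, and the share was 39.8% for C2. It was 51.7% for Masp2 (with Tardbp), 44.5% for C1ra (with C1rb), 32.7% for Serpinc1 (with Zbtb37), 27.4% for C1s1 (with C1s2) and 25.5% for C4b (with C4a). Values of these 7 genes are therefore uncertain. Libraries were unstranded, so reads from overlapping genes of opposite strands cannot be told apart.

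The comparison of alleles asked how each F1 liver divided a member's counts between its NOD and PWK copies. Of the membrane attack subunits, 4 divided unequally and in both directions: C8a and C6 leaned to the PWK allele, C8b and C9 to the NOD allele. C2 (log2 ratio -0.76 ± 0.05), Masp1 (-0.67 ± 0.05) and Pros1 (-0.67 ± 0.04) leaned to NOD by similar amounts, and C8g was close to even. All 3 fibrinogen chains leaned to NOD in 48 of 48 mice. Of 18 complement members, 5 had more counts from PWK and 8 more from NOD; of 20 autosomal coagulation members, 5 had more from PWK and 12 more from NOD. Over all 9362 autosomal genes tested, 20.9% were called higher from PWK and 22.8% higher from NOD by edgeR's quasi-likelihood test with Benjamini-Hochberg adjustment at 0.05. The median log2 ratio of PWK over NOD was -0.11 for the coagulation members and 0.00 for the complement members.

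**Figure D1:**
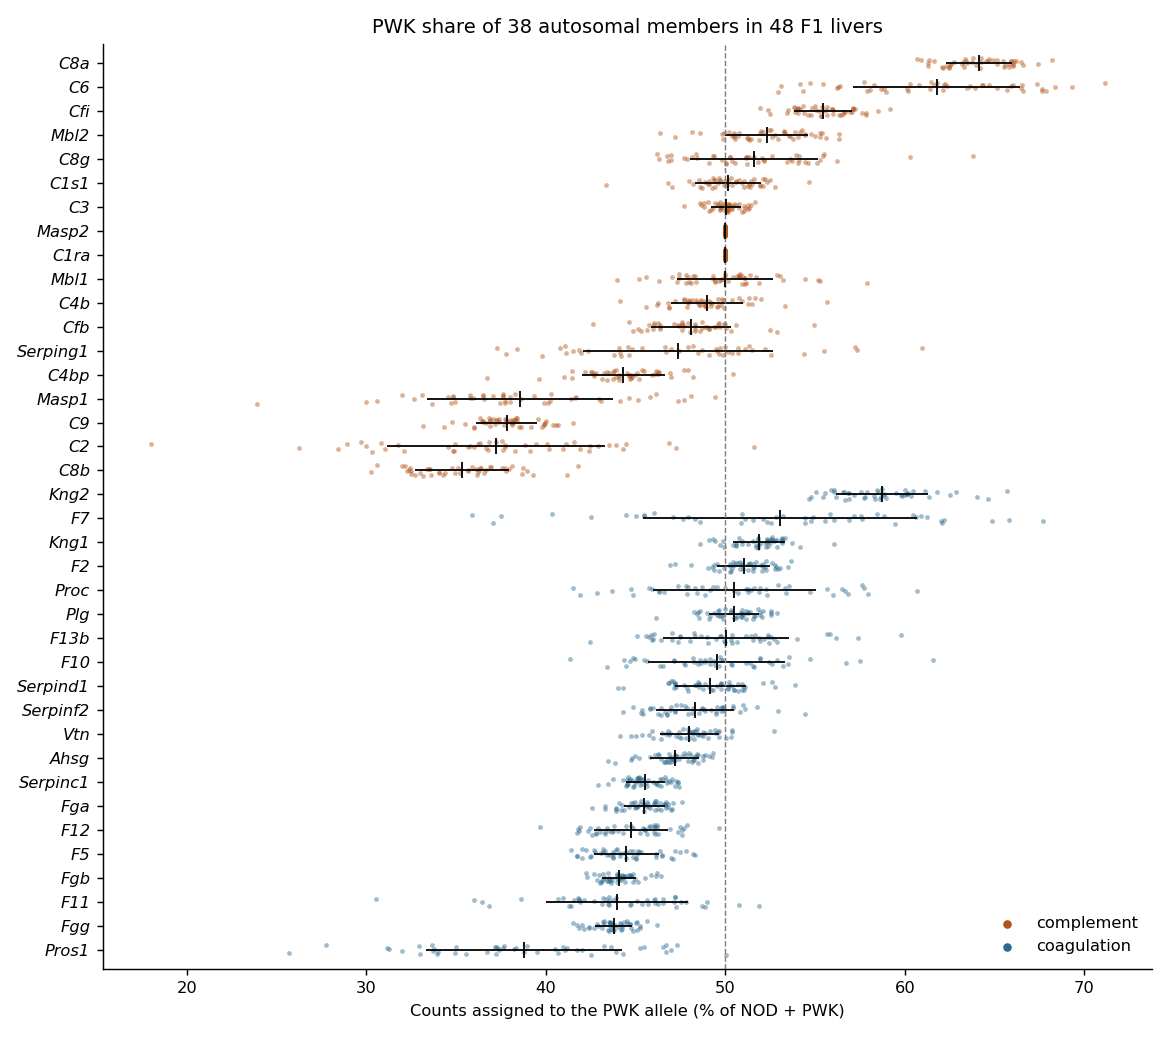
Counts given to the PWK allele as a percent of NOD plus PWK counts, for 38 autosomal members. Each point is 1 of 48 mice, the tick and bar are the mean ± SD, the dashed line marks 50%, and C8a and C8b lie at opposite ends of the complement members.

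Among the membrane attack genes, C8a, the alpha chain of C8, gave a PWK share from 60.7% to 68.2% over the 48 mice, with a median of 64.2%. C8b, the beta chain that joins it in the same protein, gave 30.2% to 41.8%, with a median of 35.4%. The 2 ranges did not overlap, although the genes are neighbours on chromosome 4, 11130 bp apart, C8b at 104766317-104804548 on the plus strand and C8a at 104815679-104876398 on the minus strand (GRCm38). The log2 ratio of PWK over NOD was 0.84 ± 0.01 (SE) for C8a (adjusted p = 6.2e-40, edgeR) and -0.87 ± 0.02 for C8b (adjusted p = 1.2e-30). C8g, the gamma chain encoded on another chromosome, had a median share of 51.2% and a log2 ratio of 0.09 ± 0.03 (adjusted p = 0.0027).

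C6 and C9 also lie on 1 chromosome, 15, and also leaned to opposite alleles. C6, which joins the growing complex before C8, had a PWK share of 52.9% to 71.1% (median 62.0%) and a log2 ratio of 0.70 ± 0.03 (adjusted p = 2.3e-23, edgeR). C9, which polymerises into the pore, had a share of 33.2% to 41.5% (median 37.9%) and a log2 ratio of -0.72 ± 0.01 (adjusted p = 6.6e-36). No mouse of the 48 overlapped between C6 and C9 or crossed 50% in either gene. C6 had 2570 and C9 4064 mean counts per mouse, and the range of C6 was the wider.

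In the early pathways, Masp1 had a PWK share of 38.6 ± 5.19% (SD, n = 48) and C2, the protease of the classical C3 convertase, 37.2 ± 6.07%. C2 rests on shared windows, as given above, and Cfb beside it on chromosome 17 stood at 48.1 ± 2.24%. Mbl2, a mannose-binding lectin, had a share of 52.3 ± 2.33%. C4b had a median share of 48.9%, and both passed the test with log2 ratios of 0.13 ± 0.02 (Mbl2) and -0.06 ± 0.02 (C4b). C3, which had the most counts of the members, 38810 per mouse, was divided almost evenly, with a share of 47.7% to 51.7%, and did not pass. C1ra and Masp2 were given exactly equal NOD and PWK counts in 48 of 48 mice, so they carry no allelic information, and 468 of the 9362 tested genes share this property. C1s1 (median share 50.1%) and Mbl1 (highest share 57.9%) did not pass either.

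Among the complement regulators, Cfi, the protease that degrades C3b and C4b, had a PWK share above 50% in 48 of 48 mice, 51.9% to 59.2%, and a log2 ratio of 0.32 ± 0.01. C4bp, the binding protein that serves as its cofactor, leaned the other way in 47 of 48 mice, with a median share of 44.3% and a log2 ratio of -0.33 ± 0.02. Serping1, the C1 inhibitor, had a wide range of 37.3% to 61.0% and a log2 ratio of -0.15 ± 0.04 (adjusted p = 0.0040, edgeR). That call was lost without the 7 mice labelled 25 (adjusted p = 0.060) and without lane set 1 (0.053).

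The fibrinogen chains are 3 adjacent genes of chromosome 3, Fgg at 83007724-83015049, Fga at 83026076-83033627 and Fgb at 83040141-83049863 (GRCm38), Fgb on the minus strand and the others on the plus strand. Fgg had a PWK share of 41.5% to 46.2%, with a median of 43.7%. Fgb had 42.2% to 46.4% (median 44.1%) and Fga 42.6% to 47.6% (median 45.6%). The 3 ranges overlapped one another, and none reached 50%. The log2 ratios were -0.36 ± 0.01 for Fgg (adjusted p = 1.5e-33, edgeR), -0.34 ± 0.01 for Fgb (1.8e-33) and -0.26 ± 0.01 for Fga (1.1e-25). F13b, the carrier subunit of the enzyme that crosslinks fibrin, had a mean share of 50.1 ± 3.51% (SD, n = 48) and did not pass.

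Among the other coagulation members, Pros1 (-0.67 on the log2 scale, given above) and Kng2 (0.51 ± 0.02) leaned farther than the fibrinogen chains. F11 (-0.35 ± 0.03), F5 (-0.32 ± 0.01) and F12 (-0.30 ± 0.02) leaned about as far as they did. Pros1 had a median PWK share of 38.3%, with 47 of 48 mice below 50%, at 171 mean counts per mouse, the fewest of the members. Kng2, a kininogen gene, leaned to PWK in 48 of 48 mice with a share of 54.6% to 65.7%. Its neighbour Kng1, on the same chromosome and sharing 11.5% of its windows with Kng2, was closer to even at 51.9 ± 1.45%. F5, the cofactor that speeds thrombin formation, had 44.5 ± 1.82%, F12, which starts the contact pathway, 44.8 ± 2.05%, and Serpinc1, antithrombin, a median of 45.3%, and all 3 were below 50% in 48 of 48 mice. F11, a contact pathway protease, had a median of 43.8%. Ahsg (47.2 ± 1.36%), Vtn (48.0 ± 1.65%), Serpinf2 (48.3 ± 2.17%) and Serpind1 (49.2 ± 1.99%) leaned to NOD by smaller amounts, and F7 (53.1 ± 7.62%), F2 (51.0 ± 1.49%) and Plg (50.5 ± 1.38%) to PWK. F10 and Proc, a clotting protease and the precursor of an anticoagulant one, did not pass. F7 lost its call without the mice labelled 25 (adjusted p = 0.60) and without lane set 1 (0.096) or 6 (0.090), Plg without lane set 3 (0.11), 4 (0.17) or 5 (0.17), and Serpind1 without lane set 3 (0.054). With the lane set as a replicate block in limma, Plg (adjusted p = 0.22) and Serpind1 (0.061) did not pass.

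Of the genes outside the 40, 11 of 19 further complement genes passed the allele test, 6 toward PWK and 5 toward NOD. Of 16 further clotting genes 12 passed, 5 toward PWK and 7 toward NOD. Over all 9362 genes tested, 43.6% passed. Hc, whose product is cleaved to start membrane attack, had a log2 ratio of 1.53 ± 0.02 toward PWK (adjusted p = 9.2e-42, edgeR), larger than any member's. C4a, which shares windows with C4b, had -4.84 ± 0.09. Cpb2, the carboxypeptidase that slows fibrinolysis, had -3.53 ± 0.09, and Hgfac, an activator protease related to F12, 0.76 ± 0.02.

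Whether the division between alleles differed with parent of origin, age or diet was tested next. No member passed for parent of origin (24 of 9362 genes did, 0.256%), with 3 of 38 members and 508 of 9362 genes at an unadjusted p under 0.05 and 0 members by limma. None passed for diet (2 genes, 0.0214%), with 9 of 38 members and 432 of 9362 genes at an unadjusted p under 0.05 and 0 members by limma. With age, 2 complement members passed, Mbl2 in the direction of PWK (0.363% of all genes) and C8a in the direction of NOD (0.342%). The PWK share of C8a ran from 60.7% to 66.5% in older mice (median 62.6%) and from 62.4% to 68.2% in younger mice (median 65.7%), ranges that overlap. Its log2 ratio was lower by 0.14 ± 0.03 in older mice (adjusted p = 0.0021, edgeR). The share of Mbl2 had a median of 54.0% in older and 50.7% in younger mice, and its log2 ratio was higher by 0.15 ± 0.03 in older mice (adjusted p = 0.017). By limma on the log2 ratios neither passed (adjusted p = 0.11 for C8a and 0.15 for Mbl2, and 0.13 and 0.16 with the lane set as a replicate block), and Mbl2 lost its call without the mice labelled 25 (0.47) and without lane set 1 (0.22), 2 (0.085) or 4 (0.11).

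The next comparison was of total expression at the older and younger ages. Complement transcripts that changed were mostly higher in older mice: of 18 members 7 rose and 1 fell, among them regulators (C4bp, Cfi, Serping1), the alternative convertase (C3, Cfb), a recognition lectin (Mbl1) and C8a, while C8b fell. Of 21 coagulation members 2 rose (Vtn, Serpind1) and 3 fell (Ahsg, Serpinc1, F11). Over all 11979 genes, 6.42% were called higher and 5.59% lower in older mice. The median log2 difference was 0.10 for complement members, -0.01 for coagulation members and 0.00 for all genes.

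**Figure D2:**
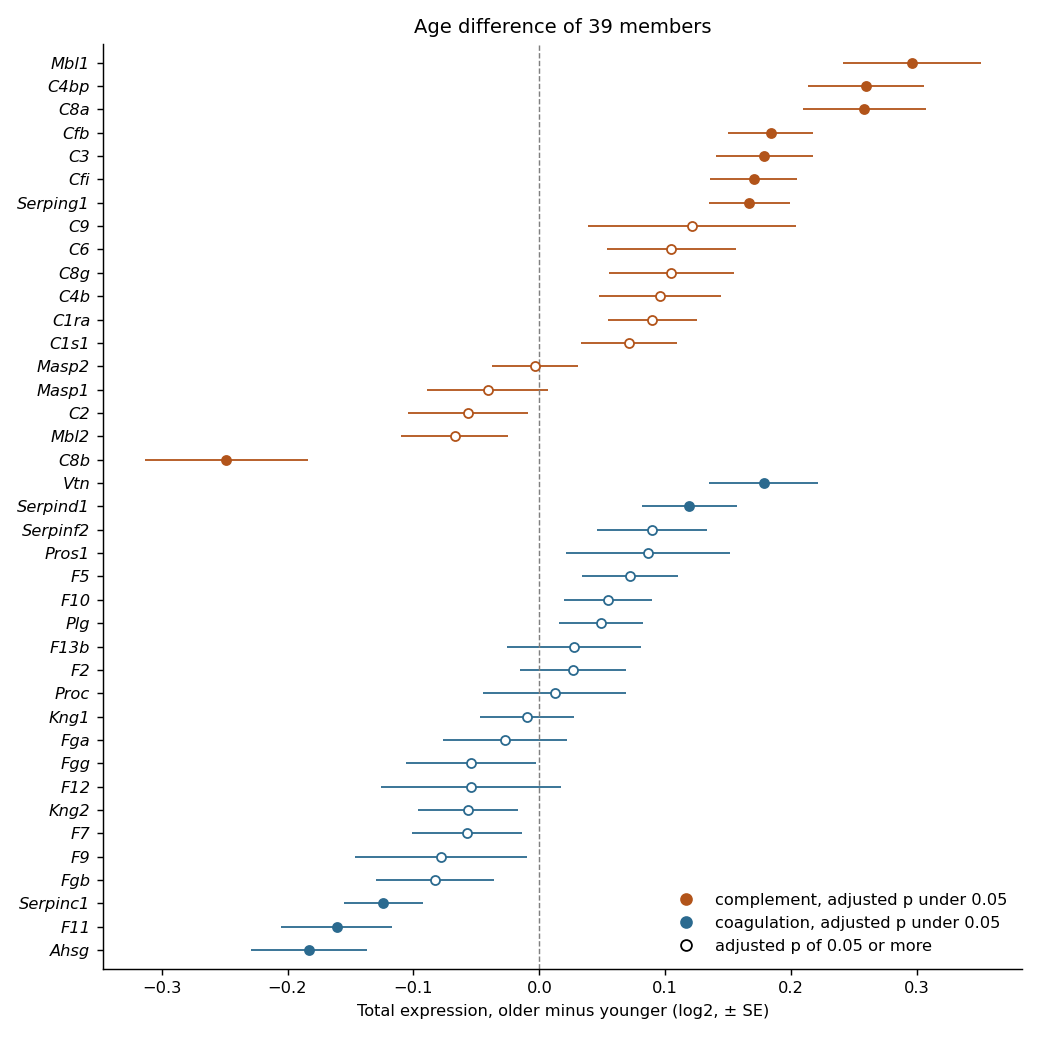
Difference in total expression between 24 older and 24 younger mice for 39 members, as log2 ± SE from edgeR. Filled points have an adjusted p under 0.05: 8 of 18 complement members and 5 of 21 coagulation members.

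C4bp ran from 394 to 821 CPM in older mice (median 509) and from 351 to 553 CPM in younger mice (median 428), with overlap, and 22 of 24 older mice lay above the median of the younger mice of their cross and diet. Its log2 difference was 0.26 ± 0.05 (SE; adjusted p = 5.6e-05, edgeR). Mbl1 had the largest rise, 0.30 ± 0.05 (adjusted p = 9.4e-05), with 106 to 206 CPM at the older and 78.7 to 145 CPM at the younger age. Cfb, the protease of the alternative convertase, had 765 to 975 CPM in older mice (median 882) and 653 to 905 CPM in younger mice (median 768), a log2 difference of 0.18 ± 0.03 (adjusted p = 9.0e-05). Serping1 and Cfi rose by 0.17 ± 0.03 each. C3 rose by 0.18 ± 0.04, from a median of 7005 to 7864 CPM (adjusted p = 0.00091). In C3 the older mice were not alike: on the normal diet those labelled 25 had 8405 to 9331 CPM and those labelled 24 had 6745 to 8035 CPM, with no overlap, and without the mice labelled 25 its difference was 0.13 ± 0.05 (adjusted p = 0.15).

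The 2 chains C8a and C8b, neighbours with opposite allele shares, also differed with age in opposite directions. C8a had 757 to 1429 CPM in older mice (median 1094) and 681 to 1045 CPM in younger mice (median 892), a log2 difference of 0.26 ± 0.05 (adjusted p = 0.00014, edgeR). C8b had 112 to 297 CPM in older mice (median 186) and 151 to 306 CPM in younger mice (median 221), a difference of -0.25 ± 0.06 (adjusted p = 0.0066). Both sets of ranges overlap. For each gene 18 of 24 older mice lay on the stated side of the younger median of their cross and diet. C8b was not lower at the older age in every group: in PWKxNOD mice on the high diet it had 204 to 297 CPM in older and 209 to 235 CPM in younger mice, with means of 248.2 and 218.6 CPM. The C8b call was lost without lane set 3 (adjusted p = 0.081) or 6 (0.057), without the mice labelled 25 (0.087) and with a score of core clock genes as a covariate (0.17).

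Of the coagulation members, Vtn, the adhesive plasma protein vitronectin, had medians of 2025 CPM (older) and 1746 CPM (younger; log2 difference 0.18 ± 0.04, adjusted p = 0.0032, edgeR). Serpind1, heparin cofactor, rose by 0.12 ± 0.04 (adjusted p = 0.029). Ahsg fell by 0.18 on the log2 scale, from a median of 5402 to 4645 CPM (SE 0.05, adjusted p = 0.0050). Serpinc1 fell by 0.12 (SE 0.03, adjusted p = 0.0052) and F11 by 0.16 (SE 0.04, adjusted p = 0.0098). The fall of F11 was not seen in every group. On the high diet, older and younger NODxPWK mice had 106 to 135 and 98.6 to 117 CPM, and PWKxNOD mice 103 to 132 and 114 to 150 CPM. On the normal diet these were 77.9 to 113 and 114 to 144 CPM in NODxPWK, and 88.45 to 127 and 116 to 148 CPM in PWKxNOD. Without the mice labelled 25, Vtn (adjusted p = 0.075) and Serpind1 (0.35) did not pass. Serpind1 did not pass without lane set 1, 2, 3, 5 or 6 either, with adjusted p from 0.059 to 0.11. The fibrinogen chains did not pass: the differences were -0.08 ± 0.05 for Fgb, -0.05 ± 0.05 for Fgg and -0.03 ± 0.05 for Fga.

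Related genes outside the 40 were counted in the same fit, where 6.42% of all genes were called higher and 5.59% lower in older mice. Acute phase genes rose in older mice in 12 of 21 cases and fell in none, among them Orm2 (log2 difference 3.09 ± 0.19), Hp (0.81 ± 0.06), Hpx (0.59 ± 0.04) and Saa1 (3.95 ± 0.30). Summed over the list, older mice had 13060 to 23070 CPM and younger mice 10490 to 15490 CPM. Of 21 further complement genes 5 rose and none fell, namely C4a (0.92 ± 0.14), Clu (0.20 ± 0.04), C1rl (0.17 ± 0.03), Hc (0.20 ± 0.06) and Cd59a. Of 20 further clotting genes 4 rose, among them Habp2 (0.19 ± 0.03) and Gas6 (0.47 ± 0.09), and Lman1, a cargo receptor for clotting factors, fell by 0.15. Summed bile duct markers also ran higher in older mice (28.1 to 121 CPM, median 45.8) than in younger ones (median 31.3), while Kupffer cell markers had medians of 153 and 146 CPM, and their part in the age differences was not tested.

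Between the crosses, the fibrinogen chains were lower and F9 higher in PWKxNOD mice. Of 21 coagulation members 1 was higher (F9) and 4 were lower in PWKxNOD (Fga, Fgg, Fgb and Serpinf2), and of 18 complement members 2 were higher (C2 and C8b) and none lower. Over all 11979 genes 5.36% were called higher and 5.33% lower in PWKxNOD.

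**Figure D3:**
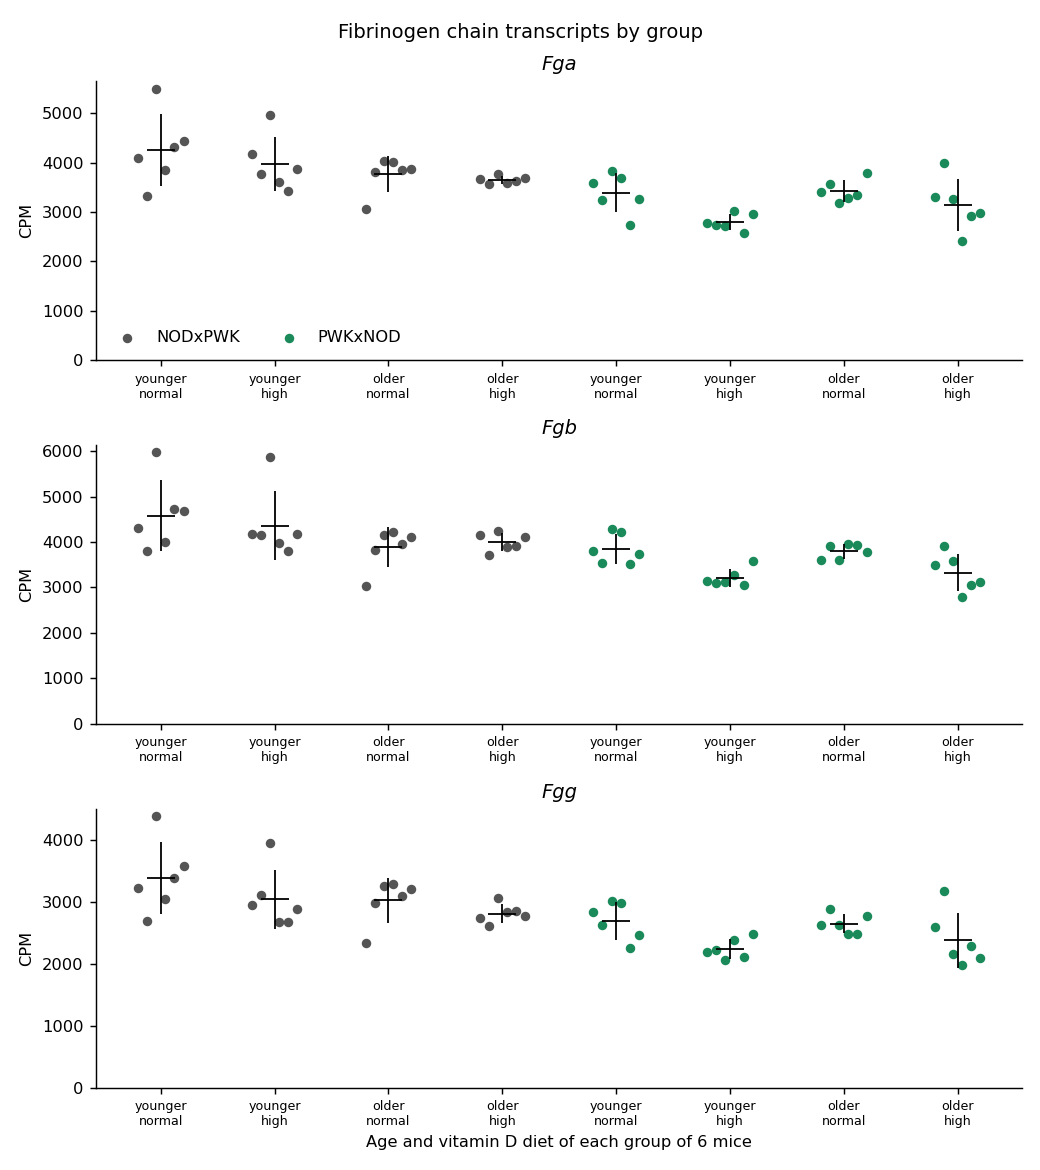
Total expression of the 3 fibrinogen chains in CPM, by group. Each point is 1 mouse, the horizontal tick and bar are the mean ± SD of 6 mice, and the PWKxNOD groups lie lower on the whole than the NODxPWK groups, with overlap.

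Fga, the alpha chain, ran from 3053 to 5498 CPM in NODxPWK mice (median 3826) and from 2421 to 4000 CPM in PWKxNOD mice (median 3247). Fgg ran from 2331 to 4384 CPM (median 3006) and from 1974 to 3170 CPM (median 2480), and Fgb from 3043 to 5980 CPM (median 4130) and from 2800 to 4292 CPM (median 3575). The ranges overlap for each chain, and 23, 23 and 24 of the 24 PWKxNOD mice lay below the NODxPWK median of their age and diet for Fga, Fgg and Fgb. The log2 differences were -0.30 ± 0.05 for Fga (adjusted p = 1.6e-05, edgeR), -0.30 ± 0.05 for Fgg (3.1e-05) and -0.25 ± 0.05 for Fgb (0.00015). Serpinf2, the main inhibitor of plasmin, was lower by 0.13 on the log2 scale (SE 0.04, adjusted p = 0.042), a call that was lost with the lane set as a replicate block (adjusted p = 0.052) and with no low count filter (0.070). It was also lost without lane set 1 (0.13), 5 (0.25) or 6 (0.19), without the lowest barcode (0.075) and without the mice labelled 25 (0.57), where the difference was -0.07 ± 0.06.

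Pooled over the 8 groups, the 3 chains moved together from mouse to mouse, though not in every group. Over the deviations of 48 mice from their group means on the log2(CPM + 0.5) scale, Pearson's r was 0.93 for Fga with Fgg, 0.91 for Fga with Fgb and 0.89 for Fgb with Fgg, and Spearman's rho 0.86, 0.86 and 0.79. Each of these had a permutation p of 1e-05, the smallest that 100000 permutations within groups can give, and an adjusted p of 1.5e-05 over the 6 pairs tested. Within single groups of 6 mice r ran from 0.70 to 1.00 for Fga with Fgg, from 0.19 to 0.99 for Fga with Fgb and from -0.12 to 1.00 for Fgb with Fgg. C8a and C8b moved together as well (r = 0.85, rho = 0.86, the same permutation p), although their age differences were opposite in sign, with 0.35 to 0.92 in single groups. C1ra and C1s1, the proteases that act as a pair in C1, did not pass (r = 0.24, permutation p = 0.14, rho = 0.28, permutation p = 0.096). The mean of the fibrinogen chains and the mean of the other acute phase genes had r = 0.53 (permutation p = 0.0038, adjusted 0.0045) and rho = 0.42 (permutation p = 0.0075, adjusted 0.0090). Its r was -0.33 to 0.96 in single groups and 0.40 without the 2 mice farthest from the median. Without those mice r was 0.88, 0.90, 0.85 and 0.82 for Fga with Fgb, Fga with Fgg, Fgb with Fgg and C8a with C8b. The 2 genes of a pair are counted in the same library of each mouse and share its depth, and without the barcode of lowest depth these 4 values were 0.91, 0.93, 0.89 and 0.87.

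The 300 bases from 250 before to 50 after the start of 6 members are shown because these members carry the age, allele or cross differences above. They are reference sequence of the C57BL/6J build GRCm38.p6 from RefSeq, not NOD or PWK sequence, written 5′ to 3′ on the strand of the gene, and 31 of the 40 members had such a window. Capitals mark matches, on either strand, to 4 motifs: TTGCNNAA (C/EBP-type), CTGGGAA (IL-6-type), GTTAAT (HNF1-type core) and TATAAA. No 2 of the marked matches overlap.
Fga, chr3:83025903-83026202, plus strand: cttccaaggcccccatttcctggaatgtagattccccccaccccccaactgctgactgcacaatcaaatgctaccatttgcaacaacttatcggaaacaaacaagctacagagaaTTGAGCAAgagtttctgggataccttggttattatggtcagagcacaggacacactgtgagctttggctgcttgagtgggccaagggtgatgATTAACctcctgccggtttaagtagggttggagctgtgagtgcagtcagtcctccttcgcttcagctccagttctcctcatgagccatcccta
Fgb, chr3:83049814-83050113, minus strand: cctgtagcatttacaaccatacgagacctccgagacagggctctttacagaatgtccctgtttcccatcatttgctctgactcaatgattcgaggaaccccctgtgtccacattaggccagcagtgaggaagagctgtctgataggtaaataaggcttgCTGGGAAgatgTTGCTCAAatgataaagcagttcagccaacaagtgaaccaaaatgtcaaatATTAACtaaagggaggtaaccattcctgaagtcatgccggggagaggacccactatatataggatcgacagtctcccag
Fgg, chr3:83007474-83007773, plus strand: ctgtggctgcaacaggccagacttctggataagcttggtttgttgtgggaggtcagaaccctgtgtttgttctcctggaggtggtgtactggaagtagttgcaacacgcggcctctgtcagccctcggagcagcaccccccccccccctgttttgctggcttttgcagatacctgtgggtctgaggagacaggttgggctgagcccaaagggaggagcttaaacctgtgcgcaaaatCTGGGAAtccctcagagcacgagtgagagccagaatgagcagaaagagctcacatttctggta
C4bp, chr1:130661569-130661868, minus strand: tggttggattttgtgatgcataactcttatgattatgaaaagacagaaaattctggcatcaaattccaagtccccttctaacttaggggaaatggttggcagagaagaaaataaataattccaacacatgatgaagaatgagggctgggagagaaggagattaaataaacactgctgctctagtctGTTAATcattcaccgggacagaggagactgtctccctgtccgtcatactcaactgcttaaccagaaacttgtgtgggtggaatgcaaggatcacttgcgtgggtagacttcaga
C8a, chr4:104876349-104876648, minus strand: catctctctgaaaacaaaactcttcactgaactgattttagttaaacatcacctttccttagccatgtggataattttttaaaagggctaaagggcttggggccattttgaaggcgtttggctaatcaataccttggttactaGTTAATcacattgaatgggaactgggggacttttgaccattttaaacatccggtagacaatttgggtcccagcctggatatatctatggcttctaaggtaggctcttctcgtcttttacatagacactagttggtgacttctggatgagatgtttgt
C9, chr15:6445096-6445395, plus strand: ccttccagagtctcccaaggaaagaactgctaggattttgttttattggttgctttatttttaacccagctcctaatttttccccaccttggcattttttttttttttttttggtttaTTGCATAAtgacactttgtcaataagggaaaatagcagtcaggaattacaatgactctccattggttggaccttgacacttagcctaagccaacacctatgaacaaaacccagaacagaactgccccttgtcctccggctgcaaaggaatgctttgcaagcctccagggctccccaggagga

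In Fgb the IL-6-type match began 91 bases and the C/EBP-type match 80 bases before the start, with an HNF1-type match on the opposite strand at 29 bases. Fga had a C/EBP-type match at 135 bases and an HNF1-type match at 43 bases, both on the opposite strand, and Fgg an IL-6-type match at 13 bases. Distances count from the RefSeq start. For Fga that start lies downstream of the gene start given above (83026076), so its HNF1-type match falls inside those gene coordinates. The 3 chains thus did not share 1 set of these letters. C4bp held an HNF1-type match at 64 bases, C8a another at 107 bases and C9 a C/EBP-type match at 132 bases. None of the 6 windows held TATAAA. TTGCNNAA occurs in 10.8% of the 32851 promoter windows of the table and in 12 of the 31 member windows. CTGGGAA occurs in 11.1% and in 8 of 31, GTTAAT in 7.1% and in 9 of 31, and TATAAA in 13.6% and in 3 of 31. A match describes letters only.

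F9, clotting factor IX, is the X-linked member, at 59999464 on chromosome X of GRCm38. It ran from 104 to 173 CPM in NODxPWK mice (median 136) and from 120 to 273 CPM in PWKxNOD mice (median 183), with overlap. The log2 difference was 0.44 ± 0.07 (adjusted p = 5.8e-06, edgeR), and 22 of 24 PWKxNOD mice lay above the NODxPWK median of their age and diet. Counts given to the strain of the sire, whose X chromosome sons do not inherit, were 0.813% of F9 counts in NODxPWK and 0.309% in PWKxNOD mice, at most 5.28% in 1 mouse. Nearly all F9 counts in PWKxNOD mice were thus given to the PWK copy. The allele on the X chromosome and the direction of the cross cannot be told apart for this gene. Of the other genes of clotting and complement on the X chromosome, F8 was lower in PWKxNOD by 0.50 on the log2 scale (SE 0.08) and Cfp, properdin, higher by 0.34 ± 0.09.

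**Figure D4:**
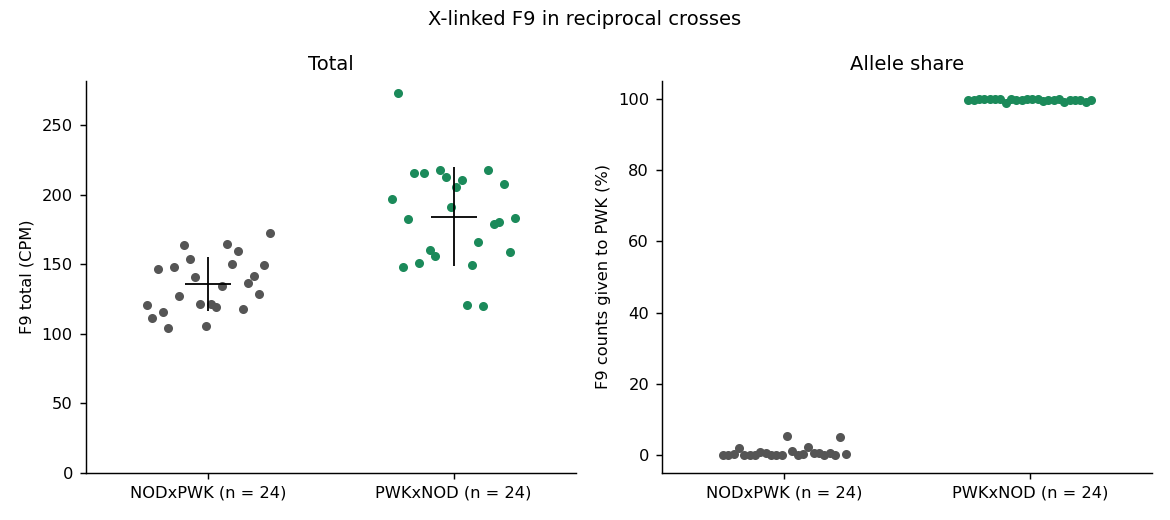
Left, F9 total expression in CPM in the 24 mice of each cross, with the mean ± SD. Right, the percent of F9 counts given to the PWK allele, which is near 0 in NODxPWK and near 100 in PWKxNOD mice.

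C2 had 93.0 to 131 CPM in NODxPWK mice (median 112) and 77.9 to 174 CPM in PWKxNOD mice (median 127), with overlap and a log2 difference of 0.19 ± 0.05 (adjusted p = 0.0043, edgeR). C8b had medians of 186 and 223 CPM and a difference of 0.24 ± 0.06 (adjusted p = 0.0091), which was lost without lane set 2 (0.075) and without the mice labelled 25 (0.060). Of 20 further clotting genes, 4 were lower in PWKxNOD (F8, Ggcx, Apoh and Pzp) and none higher. Over all genes 5.33% were called lower and 5.36% higher. A score of core clock genes, the mean log2 level of 6 genes minus that of 4 of opposite phase, also differed between the crosses, with -2.82 to 2.55 in NODxPWK and 0.873 to 4.16 in PWKxNOD mice. With that score as a covariate none of the 7 members passed (adjusted p from 0.33 for F9 to 1), and the difference of F9 was 0.38 ± 0.12, that of Fga -0.18 ± 0.09, that of Fgb -0.20 ± 0.09 and that of Fgg -0.17 ± 0.09. For Serpinf2 it was -0.16 ± 0.08 (adjusted p = 0.82), for C8b 0.13 ± 0.12 and for C2 0.05 ± 0.09. The part of the clock score and that of the cross cannot be told apart.

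Some markers of other cell types also differed between the crosses. Of 13 exocrine pancreas markers 6 were higher in PWKxNOD and none lower, with a median log2 difference of 3.64, and their sum ran from 15.2 to 247 CPM in NODxPWK and from 20.8 to 1764 CPM in PWKxNOD mice. Most of these markers had a median of 0 CPM over all mice. Their sum was over 80 CPM in only 8 mice, some from each cross. The cross difference of the pancreas markers therefore rests on few mice. Alb, the hepatocyte product albumin, was lower by 0.29 on the log2 scale (SE 0.05, adjusted p = 0.00012, edgeR) and Pck1 higher by 0.68, the only 2 of 15 hepatocyte markers called. Of the bile duct markers Sox9 had -0.77 ± 0.14 and Spp1 0.27 ± 0.08. Of 7 Kupffer cell markers only Vsig4 was called (-0.44 ± 0.10), with a median log2 difference of -0.03 over the 7. Of 8 sinusoidal endothelium markers only Lyve1 was called (-0.25 ± 0.07), with a median of -0.07 over the 8. Without the 8 mice with the most pancreas transcripts the 3 fibrinogen chains, F9 and C2 passed, and C8b (adjusted p = 0.081) and Serpinf2 (0.17) did not. The part of the other markers in the cross differences was not tested.

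Over both ages, the vitamin D diet left no member past the threshold, where 41 of 11979 genes passed (0.342%). At an unadjusted p under 0.05 there were 5 of 39 members and 1323 of 11979 genes, and DESeq2 called 0 members. The 3 fibrinogen chains were among those 5. On the high diet their log2 differences were -0.17 ± 0.05 for Fgg (adjusted p = 0.12, edgeR), -0.14 ± 0.05 for Fga (0.21) and -0.12 ± 0.05 for Fgb (0.27). In the same order, 22, 22 and 19 of 24 mice lay below the normal-diet median of their cross and age. In younger mice alone no gene passed at all (0% of 11979, with 5 of 39 members and 573 of 11979 genes at an unadjusted p under 0.05 and 0 members by DESeq2).

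In older mice the high diet went with higher levels of 5 complement members and lower C3. C2, C9, C8a, C8b and C4bp were higher and C3 lower, and of the coagulation members F11 was higher and none lower. Over all genes 1.9% were called higher and 1.81% lower. The diet difference itself differed between the ages for C6, C9 and C2 and for F11, all 4 in the positive direction (0.275% of all genes). The interaction was 0.46 ± 0.10 for C6 (adjusted p = 0.024, edgeR), 0.68 ± 0.17 for C9 (0.043), 0.39 ± 0.10 for C2 (0.043) and 0.36 ± 0.09 for F11 (0.043), as log2 differences of differences. Some genes outside the 40 moved with the diet in older mice too. The bile duct marker Spp1 was higher by 0.53 ± 0.10 (adjusted p = 0.0019, interaction 0.73 ± 0.15 with adjusted p = 0.016). Of 21 acute phase genes 2 were called higher and none lower, Apcs by 0.61 ± 0.13 and Orm2 by 0.76 ± 0.20. The median log2 difference of the 21 was 0.003, and Orm2 had a median level of only 4.58 CPM over all mice. Of 15 hepatocyte markers 1 was called, Apoa2, which was lower by 0.25. Summed bile duct markers stood at 42.3 to 121 CPM in older mice on the high diet and at 28.1 to 58.7 CPM in those on the normal diet. That sum was mostly Spp1, with a median of 31.7 CPM over all mice. The median was 3.46 CPM for Sox9, 0.746 for Krt19, 0.462 for Krt7 and 0.585 for Epcam. Only 2 of these markers, Spp1 and Sox9, were tested, with a median log2 diet difference of 0.15 in older mice. Sox9 was not called and went in the direction opposite to Spp1. The part of the bile duct markers in the diet differences of the members was not tested.

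**Figure D5:**
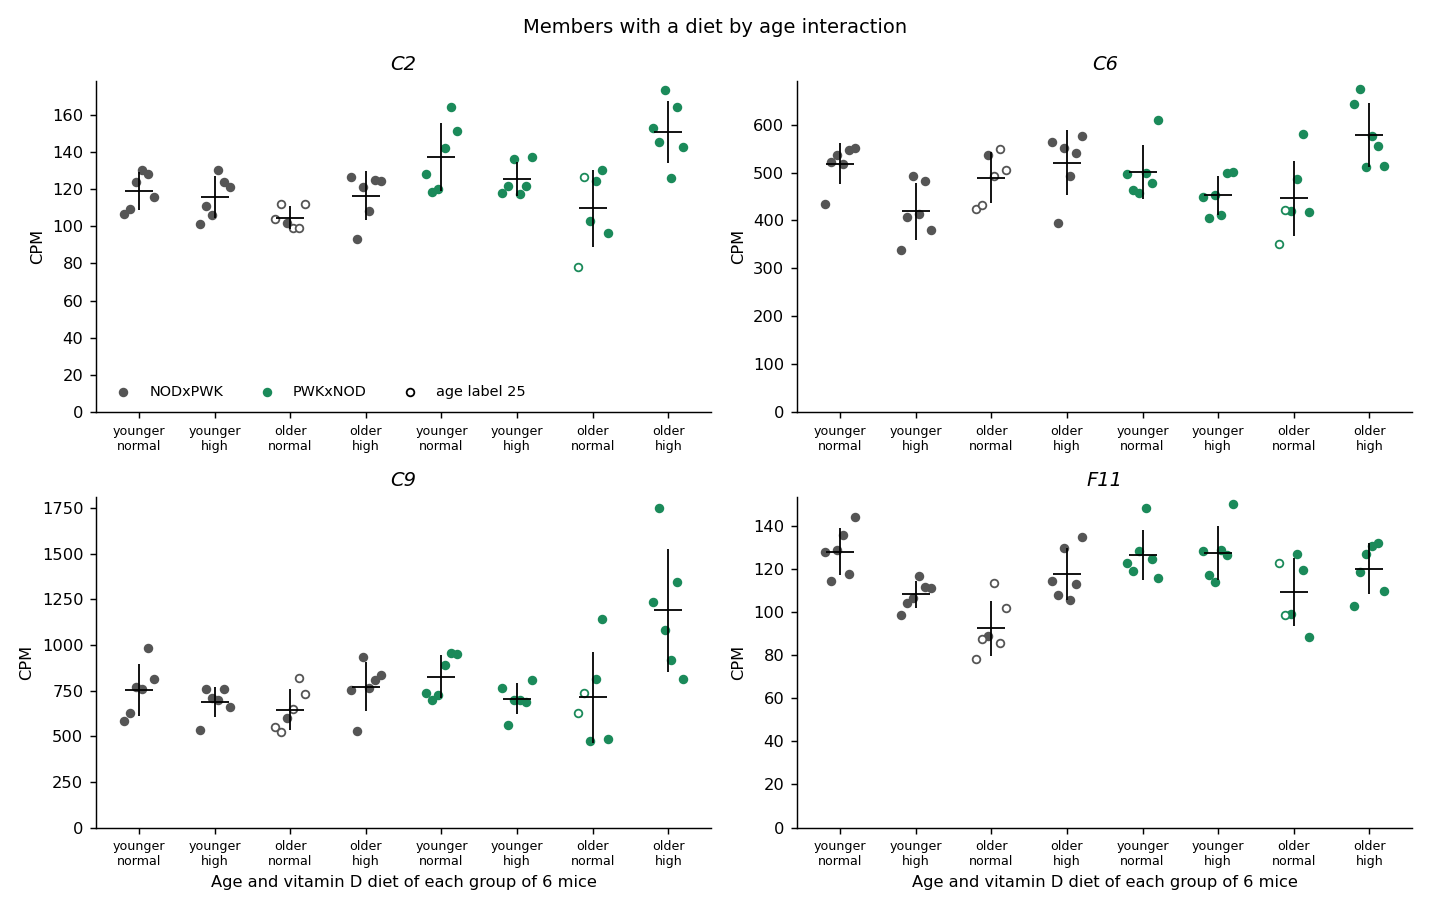
Total expression of C2, C6, C9 and F11 in CPM, by group of 6 mice, with the mean ± SD. Open points are the 7 mice with age label 25, all of them in the older groups on the normal diet, and for each gene the older mice on the high diet average above the older mice on the normal diet.

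C9 ran from 530 to 1747 CPM in older mice on the high diet (median 876) and from 476 to 1144 CPM in those on the normal diet (median 639), with overlap. By cross, older mice on the high and the normal diet had 530 to 931.5 and 523 to 816 CPM in NODxPWK. In PWKxNOD they had 813 to 1747 and 476 to 1144 CPM. In younger mice the medians were 700 and 764 CPM. Its diet difference in older mice was 0.49 ± 0.12 (adjusted p = 0.0098, edgeR), with 11 of 12 mice above the normal-diet median of their cross. C2 had 93.0 to 174 CPM on the high and 77.9 to 130 CPM on the normal diet, a difference of 0.30 ± 0.07 (adjusted p = 0.0057). C6 had medians of 554 and 459 CPM in older mice and 431 and 509 CPM in younger mice, on the high and the normal diet, so its order was opposite at the 2 ages. In older mice alone C6 did not pass (0.23 ± 0.07, adjusted p = 0.058). C8a and C8b, opposite in age, both had positive diet differences in older mice, 0.24 ± 0.07 and 0.32 ± 0.09 (adjusted p = 0.037 for each). C4bp had 0.22 ± 0.07 (adjusted p = 0.045), and its call was lost with the lane set as a replicate block (adjusted p = 0.062). In older NODxPWK mice C4bp was much alike on both diets, 457 to 592 CPM (high) and 457 to 561 CPM (normal). In older PWKxNOD mice it ran from 476.5 to 821 CPM (high) and from 394 to 498 CPM (normal).

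C3 had 6640 to 8433 CPM on the high and 6745 to 9331 CPM on the normal diet in older mice. The difference was -0.19 ± 0.05 (adjusted p = 0.032, edgeR), and 12 of 12 mice lay below the normal-diet median of their cross. F11 had 103 to 135 CPM on the high and 77.9 to 127 CPM on the normal diet, a difference of 0.24 ± 0.06 (adjusted p = 0.017). Leaving out 1 lane set at a time gave 1 to 5 complement members called for the diet in older mice. With the clock score as a covariate, none of the 7 members passed for the diet in older mice and none of the 4 for the interaction. In older PWKxNOD mice that score ran from 2.23 to 3.95 on the high and from 0.873 to 2.46 on the normal diet. In older NODxPWK mice it ran from -2.82 to 1.17 (high) and from -2.67 to -0.271 (normal). The part of the clock score in the diet differences was not tested beyond these values. Without the 7 mice labelled 25, the older NODxPWK group on the normal diet keeps only the mouse of lane set 3. Passing or not passing in that setting is therefore not read for the diet in older mice or for the interaction. The differences then were 0.54 ± 0.20 for C9, 0.31 ± 0.10 for C2, 0.28 ± 0.10 for F11 and -0.08 ± 0.08 for C3. The mice labelled 25 also had a summed acute phase level of 16740 to 19410 CPM, above the 13060 to 15850 CPM of the normal-diet older mice labelled 24, and the part of the label in the diet difference was not tested beyond these values. No member passed for the interaction of age with cross (6 genes, 0.0501%, with 4 of 39 members and 1066 of 11979 genes at an unadjusted p under 0.05 and 0 members by DESeq2) or of diet with cross (15 genes, 0.125%, with 10 of 39 members and 1668 of 11979 genes, and 0 members by DESeq2).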

How the data were processed

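The deposited values are expected counts of the NOD and of the PWK allele, estimated per gene by the authors with EMASE, per the labels, and not scaled to depth. The submitters' processing notes list Bowtie 1.1.2, CASAVA 1.7.0 and GRCm38 or mm10 as build. The EMASE version and gene annotation behind the tables: not given in the sources used here. Each mouse was run on 2 flowcells, and the tables hold 1 column per mouse. Of 38924 genes, 37607 were matched by identifier to GENCODE M21 (GRCm38), and the other 1317 held 0.159% of counts.

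Total expression was the rounded sum of both alleles. It was fitted over all 48 mice with 8 group means in edgeR 4.0.16 (R 4.3.3; filterByExpr, TMM, robust quasi-likelihood test, two-sided), which left 11979 genes and a biological coefficient of variation of 16.6%. Allele ratios were fitted in edgeR with each mouse as a fixed effect, on the 9362 autosomal genes that averaged 20 counts or more per mouse. P-values were adjusted by Benjamini-Hochberg over every gene in a fit, and 0.05 was the threshold. CPM values are scaled by TMM, and PWK shares are PWK over NOD plus PWK counts. Alternatives used DESeq2 1.42.0, limma 3.58.1, other scalings and filters, and fewer mice. The fits for age and for PWK over NOD were also run on simulated counts, whose outcome is not given here. Those counts held no uncertainty in assigning reads to alleles, and the diet and interaction contrasts were not simulated. F9 was left out of the allele test as X-linked.

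The labels give the lane of each mouse, and a lane was shared by 1 mouse from each group. Replicate numbers are therefore lane sets. Over 168 pairs of mice of different groups, deviations from the group means correlated at -0.01 on average within a lane set and 0.00 between lane sets. No 2 mice of a group agreed within sampling noise: the mean chi-square per gene over 120 pairs was at least 4.35. The labels call the 6 mice of a group biological replicates.

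Full values are given for members past the threshold, up to 6 per comparison in each of complement and coagulation by smallest p, and for F9, and of other lists up to 4 genes each, also by smallest p. Members and lists were chosen with earlier results of these data known. Leaving out mice with pancreas transcripts, the clock score and leaving out genes with equal alleles were added as alternatives after seeing the data. Counting reads shared between similar genes can move the values of both. Members ranged from 171 (Pros1) to 38810 (C3) mean counts per mouse, so the precision of their totals differs. Mean counts alone do not give the spread of a PWK share. Serping1, with 4127 mean counts, had an SD of 5.29%, and C8b, with 1072, had 2.62%. The motif letters searched in the promoter windows were chosen after the windows were seen.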

Additional observations from a re-analysis of the deposited data

Results flagged for a closer look

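In 9 of 96 group values tested (12 members in 8 groups), 1 mouse stood apart from the other 5 by Dixon's criterion for 6 values, where chance gives about 1 in 20. In NODxPWK older mice on the normal diet, the mouse of lane set 1 was lowest for all 3 fibrinogen chains, with 3053 CPM of Fga (others 3811 to 4032), 3043 of Fgb (others 3827 to 4223) and 2331 of Fgg (others 2974 to 3295). In NODxPWK younger mice on the high diet, the mouse of lane set 3 was highest for Fgb, 5869 CPM (others 3804 to 4187), and for Fgg, 3951 CPM (others 2668 to 3111). C6 had a low value of 434.8 CPM in NODxPWK younger mice on the normal diet (lane set 1). In PWKxNOD younger mice on the normal diet, the mouse of lane set 6 was highest for C6 (610.8 CPM) and for C8b (306.1 CPM). C4bp had a high value of 821.2 CPM in PWKxNOD older mice on the high diet (lane set 2), with 476.5 to 587.4 CPM in the others.

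The effect of the diet differed between the ages, by the interaction test, for C9 (log2 difference of differences 0.68), C6 (0.46), C2 (0.39) and F11 (0.36). The allele ratio differed between the ages for Mbl2 (log2 0.15) and C8a (-0.14).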

How the results depend on the processing

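The allele leanings and the age differences of complement kept their direction under every alternative tried (13 for allele ratios, 16 for total expression), and no member past the threshold reversed in any comparison. Of values for single members past the threshold, 378 of 390 kept their call for the allele ratio, 94 of 112 for the cross, 59 of 112 for the diet in older mice, 28 of 64 for the diet by age interaction and 18 of 26 for the allele ratio with age. For age, 18 of 256 values lost their call, counting the 3 fibrinogen chains, which were not past the threshold at the start. With the lane set as a replicate block, 8 complement and 5 coagulation members were called for age, and the block changed no call other than those of Serpinf2, C4bp, Plg, Serpind1, Mbl2 and C8a given above and 1 gain each for complement in the cross (3 called), the diet in older mice (6 called) and the diet by age interaction (4 called). Plg, Mbl2 and C8a were lost by limma without the block too. Pancreas-marker mice below are the 8 with exocrine pancreas markers over 80 CPM.

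Coagulation members called for age were 3 without age label 25, 3 without pancreas-marker mice and 2 with the clock score. For the cross, complement members called were 1 without age label 25, 1 without pancreas-marker mice and 0 with the clock score, and 1 to 3 leaving out lane sets; coagulation members were 0 with the clock score. For the diet in older mice, complement members called were 2 with no low count filter, 0 without age label 25, 1 without the lowest barcode, 1 without pancreas-marker mice and 0 with the clock score, and 1 to 5 leaving out lane sets. Coagulation members there were 0 without age label 25, without pancreas-marker mice and with the clock score, and 0 to 1 leaving out lane sets. For the diet by age interaction, complement members called were 5 by DESeq2, 1 with no low count filter, 0 without age label 25, 1 without the lowest barcode, 0 without pancreas-marker mice and 0 with the clock score, and 0 to 2 leaving out lane sets. Coagulation members there were 0 under the latter 5 settings and 0 to 1 leaving out lane sets. For the allele ratio, complement members called for parent of origin were 1 without the lowest barcode and 0 to 1 leaving out lane sets, and for age 0 by limma, 0 by limma with the block, 1 without age label 25 and 1 to 3 leaving out lane sets. The cause was not tested, beyond the fewer mice of some settings. Without age label 25 the older NODxPWK group on the normal diet keeps only the mouse of lane set 3.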
